A study of Mus musculus with 7 samples.

Results

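The nuclear genes for subunits of the mitochondrial respiratory chain and of ATP synthase were followed in bulk RNA of mouse aorta. A gene was taken when its symbol began with Ndufa, Ndufb, Ndufc, Ndufs, Ndufv, Uqcr, Cox4i, Cox5, Cox6, Cox7, Cox8 or Atp5, or was *Sdha*, *Sdhb*, *Sdhc* or *Sdhd*. Of 104 such genes, 8 complex I assembly factors and 7 pseudogenes with ps in the symbol were left out. So were 6 genes, some of them also annotated as pseudogenes, with a mean under 1 CPM over the 7 libraries. CPM is the count of a gene after scaling each library to the same size. These steps left 83 of the 47729 genes of the table, 38 of complex I, 4 of complex II, 8 of complex III, 16 of complex IV and 17 of complex V (ATP synthase). The lowest means inside the limit were 2.66 CPM for *Cox6b2* and 2.77 CPM for *Cox4i2*. The highest outside it was 0.60 CPM for *Ndufb4c*, annotated as a processed pseudogene. The symbols do not cover every subunit, since *Cyc1* and *Usmg5* carry other names, and *Ndufa4* is counted here under complex I although its protein is now placed in complex IV.

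The study compared the aorta of wild-type mice (Wt in the labels, WT here, 4 libraries) with that of mice lacking the matrix metalloproteinase gene *Mmp19* (MMP19KO in the labels, described as Mmp19-/-, KO here, 3 libraries). The labels name aorta tissue and give no treatment, strain, age, sex or description of the allele. Whether the libraries of a group are separate mice is not stated, so all p-values measure the spread between these 7 libraries. The RNA came from whole tissue, in which fewer cells of a type and less RNA per cell cannot be told apart.

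Complexes I and II pass electrons from NADH and succinate to ubiquinone, complex III passes them on to cytochrome c, and complex IV hands them to oxygen. Complexes I, III and IV pump protons across the inner mitochondrial membrane, and complex V lets the protons back to make ATP. A few subunits are encoded in mitochondrial DNA, and the rest are made from nuclear genes such as the 83 described here. Complex IV has several subunits with a widespread isoform and another isoform restricted to heart and skeletal muscle, brown fat, lung or testis.

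The estimated counts of a library summed to 68151472 to 76926790 and covered 22785 to 23961 genes. The targeted gene *Mmp19* was counted in all libraries, at 24.8, 24.8, 20.7 and 34.7 CPM in WT and 25.5, 11.95 and 15.9 CPM in KO. The library labelled KO 1 therefore lay inside the WT range for *Mmp19*, and the table does not show which exons were read, so the groups are named by their labels throughout. The same library stood apart on the first principal component of all genes, which held 38.7% of the variance, at 130.9 against 8.92 and 35.6 in KO 2 and KO 3 and -78.9 to -28.9 in WT. Smooth muscle, the main cell type of the vessel wall, was present in each library, and its 10 listed markers summed to 18520 to 20440 CPM in WT but 3576, 13930 and 7270 CPM in the libraries labelled KO 1, KO 2 and KO 3.

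None of the 83 subunit genes passed edgeR's quasi-likelihood test of KO against WT at an adjusted p of 0.05. Among all 19188 genes tested, 3 genes (0.0156%) passed it. At an unadjusted p under 0.05, 1 of 83 subunit genes (1.2%) was counted against 17.2% of all genes. With DESeq2, 1 subunit gene was called higher and 0 lower, against 9.2% of the genes given an adjusted p, and limma-voom called 0. The gene counted by both was *Cox6a2*. It was also the single subunit gene with all KO libraries above all WT libraries (8.17% of all genes), and 0 had all KO libraries below all WT libraries (8.56% of all genes). The median log2 fold change over the 83 genes was -0.12, against -0.03 over all genes, with 68 genes below 0 and 15 above.

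Differences between single libraries were larger than those between the genotypes. The 83 genes together took up 0.952%, 1.39%, 0.895% and 1.11% of the counts in WT 1 to WT 4, and 0.600%, 1.07% and 1.38% in the libraries labelled KO 1, KO 2 and KO 3. On the log2 CPM scale, relative to the mean of the WT libraries, the median deviation of the 83 genes was -0.17, 0.38, -0.23 and 0.04 in WT and -1.08, 0.05 and 0.34 in KO. KO 1 was thus low, KO 2 lay among the WT libraries and KO 3 was about as high as WT 2. The lowest library was the one labelled KO 1 for 79 of 83 genes (95.2%), against 29.5% of all genes tested. The highest was WT 2 for 43 genes and KO 3 for 35 genes, together 94.0% of the subunit genes against 24.1% of all genes. KO 2 lay inside the WT range for 77 genes, and KO 3 lay above the WT mean for 79. For 72 of 83 genes the group means differed by less than the SD of the WT libraries.

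**Figure D1:**
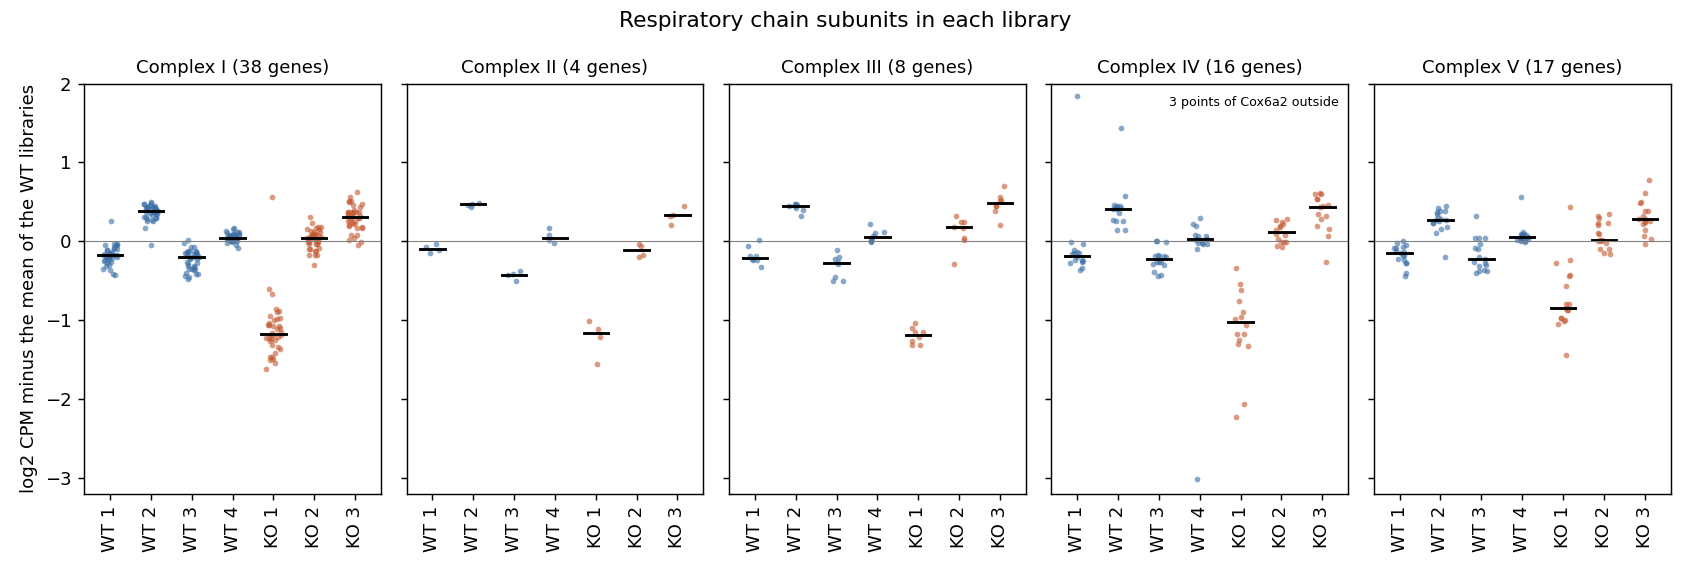
Each point is 1 subunit gene in 1 library, as log2 CPM minus the mean of the 4 WT libraries, in panels by complex. Black bars are medians over the genes. In every complex the library labelled KO 1 sits lowest and WT 2 and KO 3 sit highest. Points of *Cox6a2* beyond the axis are counted in the panel of complex IV.

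The direction of the median depended on which library was left out. Without the library labelled KO 1 the median log2 fold change of the 83 genes was 0.18, with 74 genes above 0. Without KO 3 it was -0.42, with 80 genes below 0. Leaving out WT 2 gave 0.05, with 51 genes above 0 and 32 below. No subunit gene passed edgeR's threshold in any of these 7 fits. Without KO 2, 1029 genes passed over the whole table, where 19188 genes were tested with all 7 libraries. In each of the other fits 0 genes passed over the whole table, so the 0 subunit genes there say nothing on the subunit genes.

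**Figure D2:**
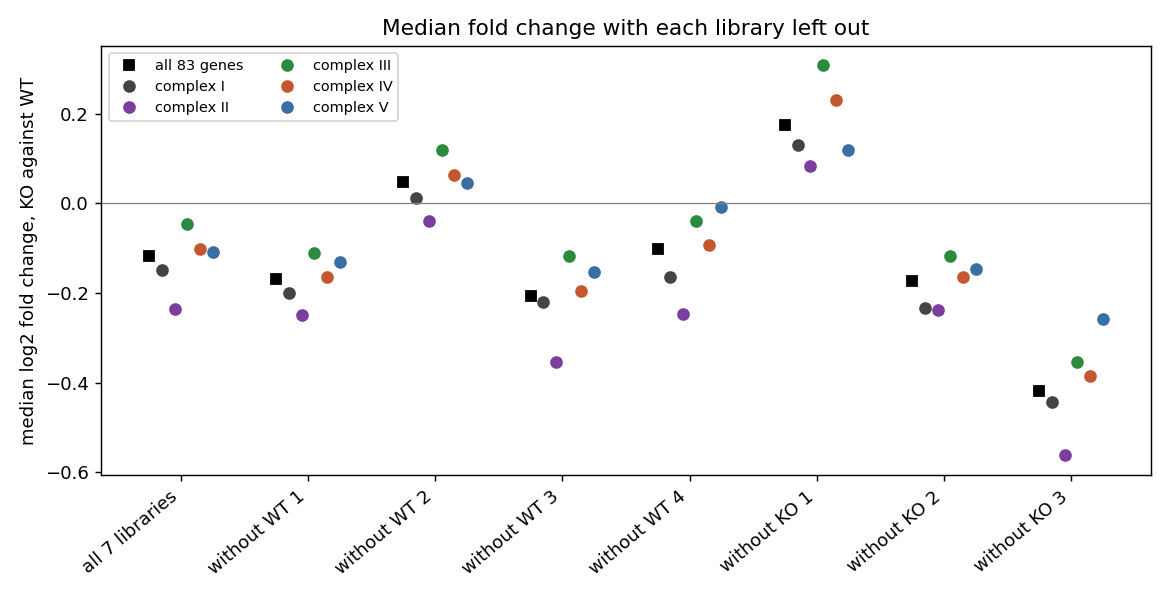
Median log2 fold change of KO against WT (edgeR) over all 83 subunit genes (squares) and over the genes of each complex (circles), with all 7 libraries and with each library left out. All medians are below 0 with all 7 libraries and without KO 3, and all are above 0 without the library labelled KO 1.

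In complex I, 35 of 38 genes had a fold change below 0 and 3 above, with a median log2 fold change of -0.15. Median deviations were -0.17, 0.38, -0.21 and 0.04 in WT and -1.18, 0.04 and 0.31 in KO. The 7 genes of the catalytic core, which carry the flavin, the iron-sulfur clusters and the quinone site, all lay below 0, with a median of -0.25. Without the library labelled KO 1 that median was 0.05, with 5 of the 7 genes above 0. *Ndufs7*, an iron-sulfur subunit next to the quinone site, had the largest negative fold change of the 83 genes. It measured 87.8, 125.5, 64.7 and 91.7 CPM in WT and 31.7, 73.0 and 89.2 CPM in KO. Of the KO libraries only the one labelled KO 1 lay outside the WT range, and the log2 fold change was -0.51 (SE 0.36, edgeR adjusted p = 0.508). It was -0.19 without KO 1, -0.31 without WT 2 and -0.82 without KO 3.

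Among the 29 accessory subunits of complex I, 27 lay below 0 and 2 above, with a median of -0.14, and all 29 were lowest in the library labelled KO 1. *Ndufv3*, an accessory subunit of the NADH-oxidizing module, measured 69.0, 97.4, 72.0 and 79.5 CPM in WT and 27.1, 70.0 and 79.9 CPM in KO (log2 fold change -0.43, SE 0.34). *Ndufa13*, also known as GRIM-19, measured 59.8, 77.9, 56.5 and 66.6 CPM in WT and 31.5, 66.5 and 66.6 CPM in KO (log2 fold change -0.25, SE 0.27). In both, 2 of 3 KO libraries lay within the WT range. The steepest accessory genes were *Ndufb6*, whose highest library was 4.27 times its lowest, and *Ndufb9*, at 4.17 times. *Ndufb6* went from 14.5 CPM in KO 1 to 61.9 CPM in KO 3, the lowest and the highest of its 7 values, and its log2 fold change was -0.01.

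*Ndufa4* and *Ndufa4l2* encode a subunit and its paralog, which is known as a hypoxia-induced gene and as a transcript of vascular mural cells. *Ndufa4* was at 130.8, 218.1, 137.8 and 146.0 CPM in WT and 61.0, 168.0 and 199.5 CPM in KO, lowest in KO 1 like most subunit genes. *Ndufa4l2* measured 10.6, 8.57, 7.92 and 8.59 CPM in WT and 13.1, 8.61 and 8.58 CPM in KO, with its highest value in the library labelled KO 1. As a share of the pair, scaled for exon length, *Ndufa4l2* made up 9.23%, 4.73%, 6.76% and 6.91% in WT and 21.3%, 6.07% and 5.15% in KO. The gene overlaps *Shmt2*, and without the strand setting reads of the overlap cannot be told apart.

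Complex II is succinate dehydrogenase, the only complex made wholly from nuclear genes and shared with the tricarboxylic acid cycle. All 4 of its genes had a fold change below 0, with a median of -0.24, and all 4 were highest in WT 2 and lowest in the library labelled KO 1. Without KO 1 that median was 0.08, with 3 of the 4 genes above 0. *Sdha*, the flavoprotein, measured 595.9, 864.4, 469.5 and 633.4 CPM in WT and 290.5, 601.5 and 790.3 CPM in KO (log2 fold change -0.19, SE 0.35). *Sdhb*, the iron-sulfur subunit, measured 189.3, 284.0, 152.0 and 215.8 CPM in WT and 69.4, 181.8 and 256.5 CPM in KO (-0.31, SE 0.42). *Sdhc* and *Sdhd* encode the membrane anchors. *Sdhc* was at 139.4, 192.9, 110.5 and 141.6 CPM in WT and 71.0, 124.6 and 165.9 CPM in KO (-0.28, SE 0.30). *Sdhd* was at 149.2, 232.8, 116.3 and 186.1 CPM in WT and 71.5, 161.3 and 226.6 CPM in KO (-0.16, SE 0.39). In each of the 4 genes KO 2 and KO 3 lay inside the WT range.

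In complex III, 6 of 8 genes lay below 0 and 2 above, with a median of -0.05. *Uqcrc1*, a core protein, had the largest negative fold change, from 386.8, 526.5, 270.2 and 394.1 CPM in WT to 154.2, 315.4 and 441.9 CPM in KO (-0.38, SE 0.37, edgeR adjusted p = 0.637). This value was -0.06 without KO 1, -0.18 without WT 2 and -0.74 without KO 3. The other core protein, *Uqcrc2*, measured 254.5, 348.6, 193.0 and 286.6 CPM in WT and 119.1, 266.8 and 377.3 CPM in KO (-0.09, SE 0.38). *Uqcrfs1*, the Rieske iron-sulfur protein, measured 179.2, 281.5, 144.2 and 236.0 CPM in WT and 87.5, 209.9 and 293.1 CPM in KO (-0.09, SE 0.40). For the last 2 genes KO 3 was the highest of all libraries. The small subunit *Uqcrq*, with 57.5, 89.9, 54.5 and 65.8 CPM in WT and 32.0, 77.6 and 106.8 CPM in KO, had the largest positive value of the complex (0.11, SE 0.38).

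All 11 widespread subunits of complex IV were lowest in the library labelled KO 1, 7 were highest in KO 3 and 4 in WT 2. *Cox4i1*, a regulatory subunit that binds adenine nucleotides, measured 333.2, 477.2, 291.6 and 364.5 CPM in WT and 182.3, 369.5 and 439.3 CPM in KO (-0.15, SE 0.31). *Cox6a1* measured 250.1, 380.1, 233.9 and 276.4 CPM in WT and 134.3, 278.2 and 321.7 CPM in KO (-0.22, SE 0.31). *Cox7a2l*, a factor that joins complexes III and IV into supercomplexes, was flatter than the rest, at 108.6, 120.5, 95.3 and 114.6 CPM in WT and 71.1, 104.1 and 121.5 CPM in KO (-0.15, SE 0.19). Its highest library was 1.71 times its lowest, against a median of 2.89 over the 83 genes.

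The tissue-restricted isoforms of complex IV differed from each other. *Cox6a2*, the heart and skeletal muscle isoform of subunit 6a (chromosome 7, 128205435 to 128206387, minus strand, GRCm38), had 49, 41, 11 and 0 counts in WT and 683, 777 and 200 in KO, or 0.768, 0.577, 0.158 and 0 CPM against 8.30, 11.1 and 2.59 CPM. The KO values lay above all WT values. The log2 fold change was 4.29 (SE 1.18), with an adjusted p of 0.181 in edgeR and 0.00221 in DESeq2. With each library left out in turn, edgeR's value stayed between 3.87 and 4.90. The WT mean of 0.376 CPM is under the limit of 1 CPM, so the gene was among the 83 only through its KO libraries. Its count cannot support a statement on the 83 genes, and among the 77 genes without the 6 tissue-restricted isoforms no gene had an unadjusted p under 0.05.

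*Cox6a2* was above WT in every KO library, while the summed markers of heart and of skeletal muscle peaked in different KO libraries. The 12 listed heart muscle markers summed to 174.2, 117.0, 112.1 and 94.1 CPM in WT and 891.6, 1514 and 43.9 CPM in KO. The 11 skeletal muscle markers summed to 9.15, 8.59, 7.93 and 13.3 CPM in WT and 29.5, 23.2 and 253.5 CPM in KO. KO 1 and KO 2 were thus high in summed heart markers, while KO 3 lay below all WT libraries. In summed skeletal muscle markers KO 3 was highest. All KO libraries exceeded all WT libraries for 1 of 12 heart and 2 of 10 tested skeletal muscle genes, against 8.17% of all genes. These were *Myh7* of the heart list and *Ckm* and *Tnni2* of the skeletal muscle list. *Myh7* measured 3.04, 1.18, 0.258 and 0.747 CPM in WT and 9.76, 12.12 and 4.10 CPM in KO. *Ckm* measured 4.07, 3.45, 2.48 and 3.49 CPM in WT and 15.98, 17.46 and 30.05 CPM in KO. The adjusted p of *Ckm* was 0.0692 in edgeR and 1.38e-15 in DESeq2. *Myh6*, the atrial myosin heavy chain, measured 47.0, 24.9, 3.63 and 2.35 CPM in WT and 410.6, 500.2 and 0.738 CPM in KO. *Ryr2*, the 1 heart marker with a fold change below 0, measured 58.3, 46.56, 79.99 and 67.29 CPM in WT. In KO it was at 46.65, 102.3 and 24.86 CPM (log2 fold change -0.12, SE 0.44). *Acta1*, skeletal actin, measured 0.455, 0.451, 0.832 and 1.85 CPM in WT and 8.61, 0.857 and 61.6 CPM in KO. In single libraries some defining markers were at 0, namely *Nppa* in KO 3, *Sln* in WT 3, *Mybpc3* in WT 4, *Myl2* in WT 2 to WT 4, *Myh4* in WT 2, *Myh1* in KO 1, and *Pvalb* in KO 2 and all WT libraries. Of the heart list, 9 of 12 genes were higher at an unadjusted p under 0.05 and 0 lower, and of the 10 tested skeletal muscle genes 8 were higher and 0 lower, while edgeR called none of either after adjustment. With DESeq2, 5 heart and 3 skeletal muscle genes were called higher. The part of these markers in the result for *Cox6a2* was not tested.

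*Cox8b* and *Cox7a1*, the isoforms of subunits 8 and 7a in heart, skeletal muscle and brown fat, had the widest range between libraries of the 82 genes counted in all of them. *Cox8b* (chromosome 7, 140898945 to 140900446) measured 28.4, 54.1, 27.0 and 42.6 CPM in WT and 7.74, 43.1 and 55.1 CPM in KO, so its highest library was 7.12 times its lowest. *Cox7a1* (chromosome 7, 30184144 to 30186078) measured 15.01, 24.3, 13.6 and 22.3 CPM in WT and 4.35, 20.8 and 27.8 CPM in KO, or 6.39 times. In both genes only the library labelled KO 1 lay below the WT range, and the log2 fold changes were -0.11 (SE 0.59) and -0.09 (SE 0.55). Unlike *Cox6a2*, neither had a low WT level. Scaled for exon length, *Cox8b* made up 23.9%, 27.3%, 22.2% and 28.0% of the *Cox8b* and *Cox8a* transcripts in WT and 12.3%, 27.4% and 29.1% in KO. *Cox7a1* made up 29.8%, 32.6%, 24.5% and 35.1% of its pair with *Cox7a2* in WT and 20.4%, 31.1% and 32.8% in KO. In the library labelled KO 1 the widespread partner *Cox8a* was at 95.4 CPM against 156.0 to 248.0 CPM in WT and *Cox7a2* at 29.9 CPM against 62.4 to 88.8 CPM.

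Of 7 listed brown adipocyte markers, 5 were lowest in the library labelled KO 1, as *Cox8b* and *Cox7a1* were, and 5 were highest in WT 2. The 7 listed markers summed to 1117, 2107, 822.1 and 1515 CPM in WT and 255.9, 1285 and 2109 CPM in KO. *Ucp1*, the uncoupling protein of brown fat, measured 429.2, 950.2, 291.4 and 760.4 CPM in WT and 92.2, 585.7 and 1284 CPM in KO, and was the only marker highest in KO 3. *Cidea*, a lipid droplet protein of brown fat, measured 337.0, 558.4, 249.6 and 376.7 CPM in WT and 42.2, 340.1 and 423.2 CPM in KO. Of the 7 markers 5 had a fold change below 0 and 2 above, with 0 at an unadjusted p under 0.05 in either direction, and *Elovl3* was at 0 in WT 3. The 8 general adipocyte markers summed to 2947, 5139, 2940 and 3920 CPM in WT and 2444, 3583 and 4578 CPM in KO. The part of brown or other fat in the levels of the subunit genes was not tested.

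*Cox4i2*, the isoform of subunit 4 known from lung and vessels, was flat, at 2.71, 3.07, 2.77 and 2.61 CPM in WT and 2.20, 3.17 and 2.93 CPM in KO (-0.01, SE 0.24). *Cox6b2*, the testis isoform of subunit 6b, measured 2.59, 3.42, 2.34 and 3.27 CPM in WT and 1.97, 2.74 and 2.38 CPM in KO (-0.30, SE 0.26). The groups overlapped in both genes. The log2 ratio of each of the 6 restricted isoforms to its widespread partner was tested 2-sided by exact permutation of the 7 libraries, with 35 divisions into 4 and 3 and a smallest p of 0.0286. *Cox6a2* to *Cox6a1* differed by 5.10 with that smallest p (adjusted over 6 pairs 0.171, permutation test), in the direction that its entry through the KO libraries favours. The other ratios differed by 0.44 for *Ndufa4l2* to *Ndufa4*, 0.19 for *Cox4i2* to *Cox4i1*, -0.18 for *Cox7a1* to *Cox7a2*, -0.26 for *Cox6b2* to *Cox6b1* and -0.28 for *Cox8b* to *Cox8a*, each with an adjusted permutation p of 0.771.

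**Figure D3:**
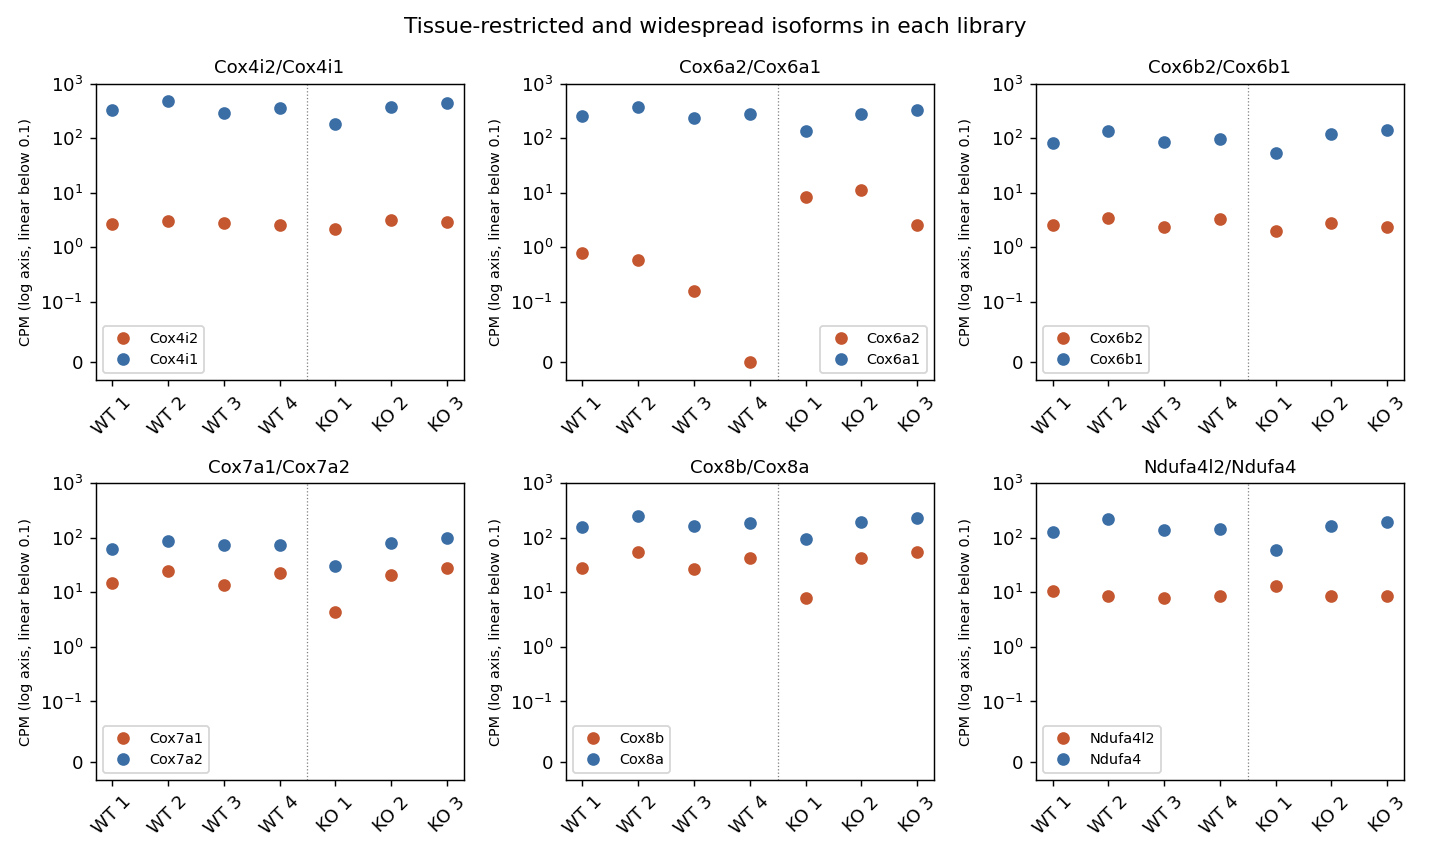
CPM of 6 restricted isoforms (orange) and their widespread partners (blue) in each library, on a log axis that is linear below 0.1. *Cox6a2* lies between 0 and 0.768 CPM in WT and between 2.59 and 11.1 CPM in KO, while *Cox8b* and *Cox7a1* lie below the WT range in the library labelled KO 1 alone.

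In complex V, 11 of 17 genes lay below 0 and 6 above, with a median of -0.11. The F1 part holds the catalytic sites, and its 5 genes all lay below 0, with a median of -0.21. Without the library labelled KO 1 that median was 0.07, with 4 of the 5 genes above 0. *Atp5b*, the catalytic beta subunit and the subunit gene with the highest CPM, measured 1454, 2053, 1133 and 1505 CPM in WT and 751.5, 1409 and 1834 CPM in KO (-0.21, SE 0.34). *Atp5d*, the delta subunit of the central stalk, measured 166.7, 226.2, 136.7 and 182.7 CPM in WT and 84.9, 156.1 and 192.8 CPM in KO (-0.30, SE 0.29). For both, KO 2 and KO 3 lay inside the WT range. *Atp5s*, which encodes factor B and not a structural subunit, was at 4.28, 5.66, 5.13 and 4.97 CPM in WT and 2.71, 4.67 and 4.88 CPM in KO (-0.29, SE 0.27).

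The 3 genes for the proton-carrying c-ring, which encode the same mature protein with different import sequences, were among the flattest of all. Their median deviation in the library labelled KO 1 was -0.24, against -0.98 for the F1 part and -0.66 for the peripheral stalk. *Atp5g1* measured 25.4, 25.2, 36.1 and 30.7 CPM in WT and 39.4, 37.0 and 30.5 CPM in KO, with its highest value in the library labelled KO 1. Apart from *Cox6a2* it had the highest log2 fold change, 0.28 (SE 0.17), with an adjusted p of 0.432 in edgeR. *Atp5g2* was at 81.1, 95.3, 66.9 and 82.96 CPM in WT and 68.7, 80.9 and 96.4 CPM in KO. *Atp5g3* was at 80.2, 97.1, 93.4 and 92.9 CPM in WT and 75.2, 89.1 and 105.2 CPM in KO. The highest library was 1.57, 1.44 and 1.40 times the lowest in these 3 genes, and the groups overlapped in each.

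**Figure D4:**
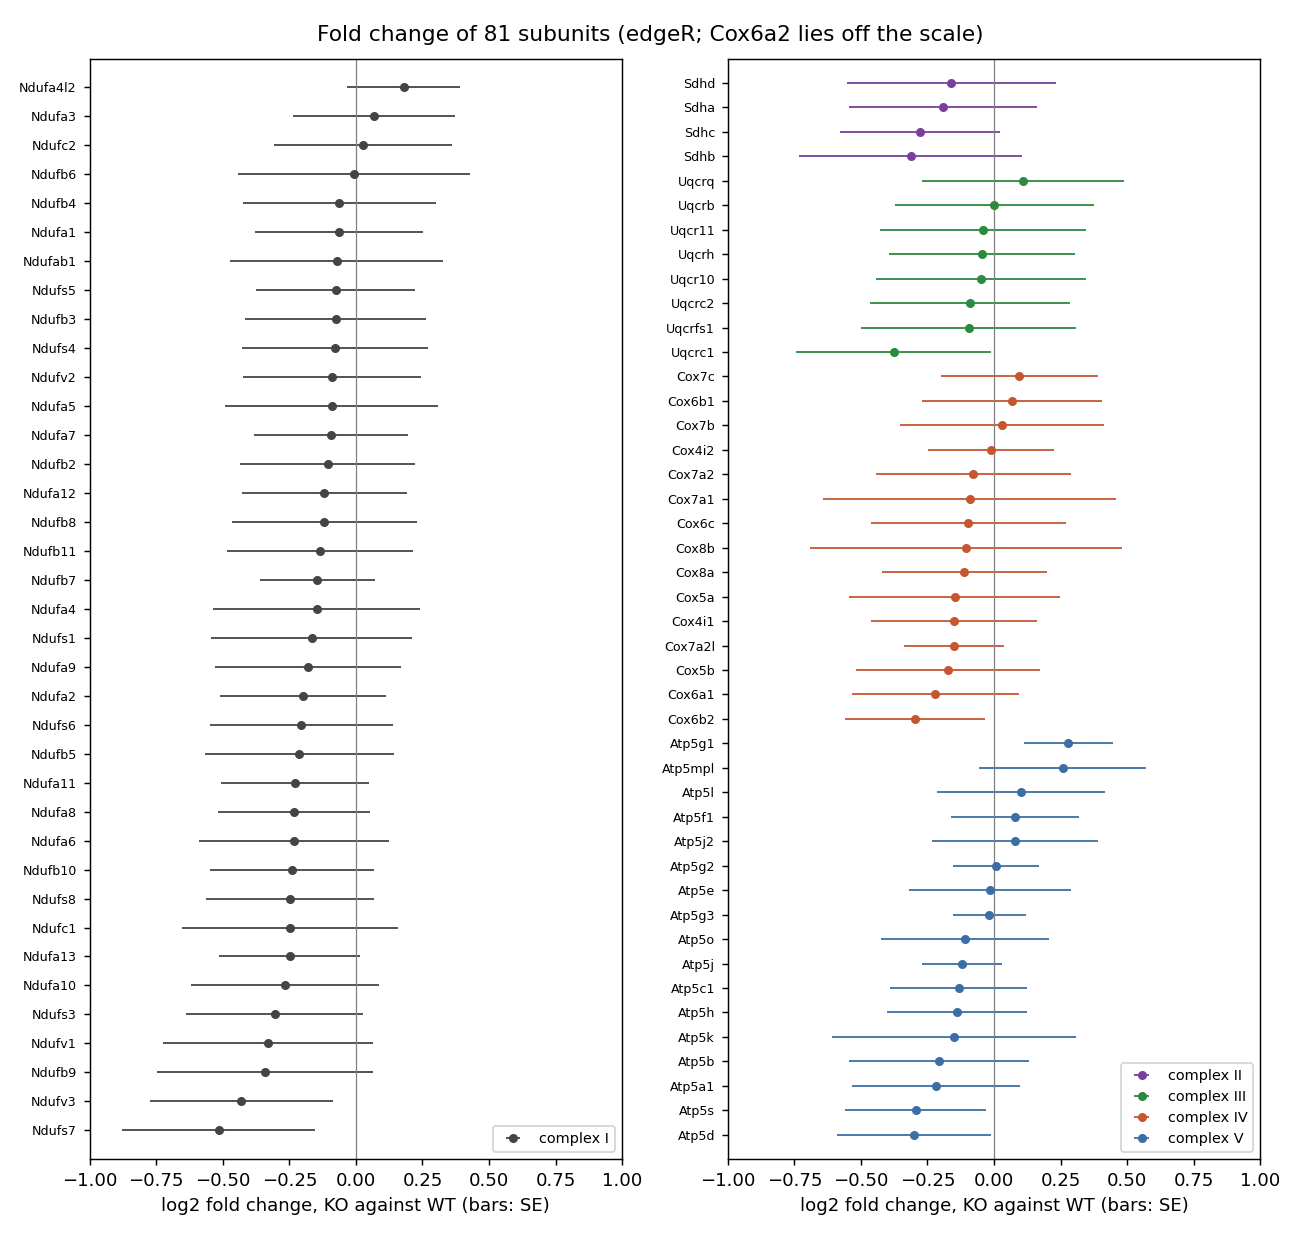
Log2 fold change of KO against WT (edgeR) for 81 subunit genes, complex I on the left and complexes II to V on the right. Bars are standard errors worked out from the F statistic. The values run from -0.51 for *Ndufs7* to 0.28 for *Atp5g1*. *Cox6a2*, at 4.29, lies off the scale.

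The spread between libraries set the flat genes apart from the rest. Over the 83 genes the highest library was a median of 2.89 times the lowest, 1.62 times within WT and 2.74 times within KO. Over the 11734 genes tested with a mean of 5 CPM or more it was 1.68 times. The 83 genes were not held to that limit, which 79 of them reached. For 73 of the 83 genes the highest library was 2 or more times the lowest, and for 5 it was under 1.6 times. These 5 were *Atp5g1*, *Atp5g2*, *Atp5g3*, *Cox4i2* and the peripheral stalk gene *Atp5j*, which overlaps *Gabpa*. The 4 genes for which the library labelled KO 1 was not the lowest were *Cox6a2*, *Ndufa4l2*, *Atp5g1* and *Atp5g2*.

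Per kilobase of exon, the mean WT level had a median of 116.5 CPM over complex II, 89.9 over complex III, 76.6 over complex IV, 45.01 over complex I and 41.7 over complex V. The highest genes of complexes II to V were *Cox6a1* in complex IV at 406 CPM per kilobase, *Atp5b* in complex V at 363, *Sdha* in complex II at 155 and *Uqcrfs1* in complex III at 154. The lowest was *Cox6a2* at 0.553, and *Atp5s* was at 2.46. The length used was that of all annotated exons of a gene joined together, so genes with long alternative exons are placed too low.

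Genes of neighbouring mitochondrial pathways were also lowest in the library labelled KO 1, namely all 13 mitochondrially encoded subunits, all 18 genes of the tricarboxylic acid cycle and 14 of 15 of fatty acid oxidation. The 13 subunit genes of mitochondrial DNA had median deviations of -0.24, 0.34, -0.10 and -0.01 in WT and -1.21, -0.01 and 0.22 in KO. *mt-Co1*, the catalytic subunit of complex IV, measured 41020, 59390, 43030 and 43610 CPM in WT and 18330, 42140 and 46580 CPM in KO. In the library labelled KO 1 the median deviation was -1.24 for the tricarboxylic acid cycle and -1.59 for fatty acid oxidation. *Ogdh*, of the 2-oxoglutarate dehydrogenase complex, measured 782.3, 956.5, 525.5 and 702.0 CPM in WT and 269.3, 577.2 and 817.2 CPM in KO. *Cpt1b*, the muscle and brown fat form of the enzyme that commits fatty acids to oxidation, measured 253.7, 390.6, 158.4 and 263.1 CPM in WT and 37.5, 196.0 and 276.5 CPM in KO. In these 3 lists edgeR called 0 genes, and 0 had an unadjusted p under 0.05 in either direction.

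Assembly factors build the complexes without being part of them. Over 51 tested genes the median deviation was -0.50 in the library labelled KO 1, and 34 genes lay below 0 and 17 above. Of them 0 passed edgeR, 2 were lower at an unadjusted p under 0.05 and 0 higher, against 17.2% of all genes in either direction. DESeq2 called 1 lower and 0 higher, against 9.2% of the genes given an adjusted p. *Sdhaf3*, a factor for the iron-sulfur subunit of complex II, measured 3.93, 5.45, 5.79 and 5.62 CPM in WT and 2.60, 3.53 and 3.61 CPM in KO (-0.68, SE 0.24, edgeR adjusted p = 0.230, DESeq2 adjusted p = 0.0444). *Ndufaf3*, a complex I factor, measured 13.9, 20.5, 16.6 and 14.2 CPM in WT and 7.78, 11.3 and 13.5 CPM in KO (-0.59, SE 0.23, edgeR adjusted p = 0.265). In these 2 of 51 assembly factors all KO libraries lay below all WT libraries, against 8.56% of all genes. In 1 of 51, *Sco1*, all KO libraries lay above all WT libraries, against 8.17% of all genes.

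**Figure D5:**
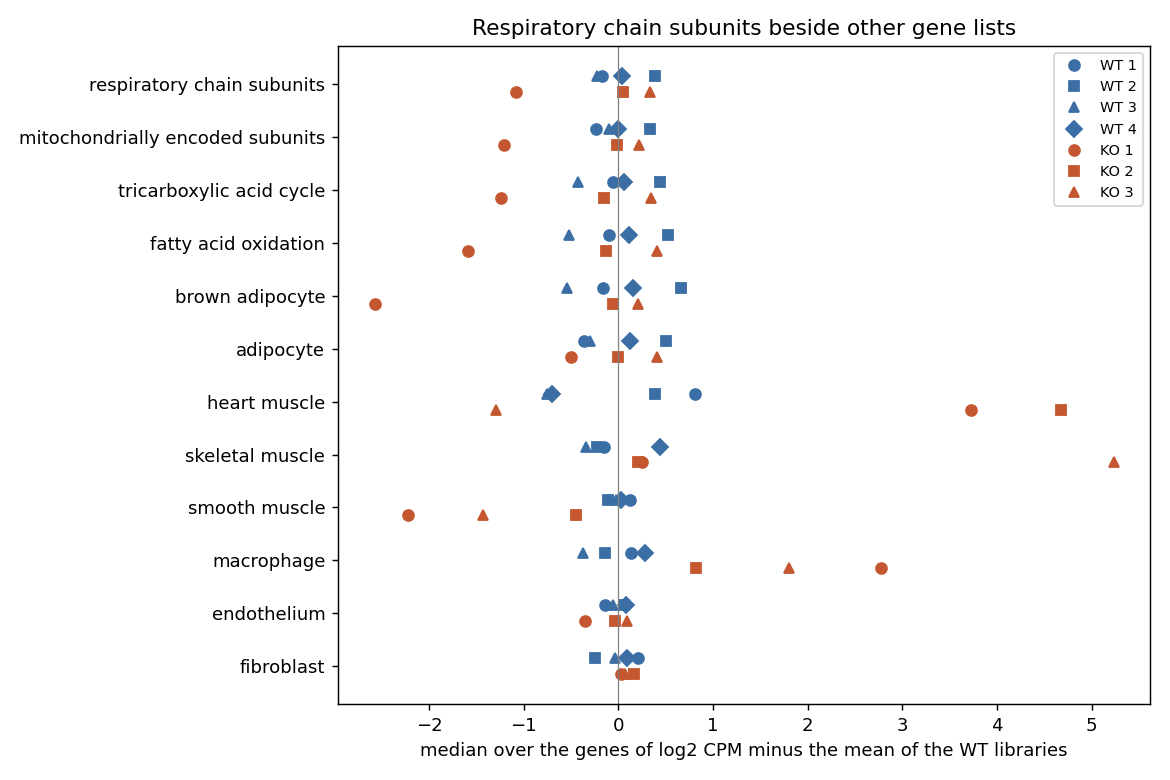
Median over the genes of each list of log2 CPM minus the mean of the WT libraries, 1 symbol per library (blue WT, orange KO). In the first 5 lists the library labelled KO 1 is lowest, at -1.08 for the subunit genes and -2.57 for brown adipocyte markers. It is also lowest for adipocyte (-0.50), smooth muscle (-2.22) and endothelium (-0.35) markers. Smooth muscle markers are low and macrophage markers high in each KO library.

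In each KO library the summed smooth muscle markers lay below all WT libraries and the summed macrophage markers above them. All 10 smooth muscle markers lay below 0, with a median log2 fold change of -1.09, and 8 were lower at an unadjusted p under 0.05 (0 in edgeR after adjustment, 6 in DESeq2). All 10 macrophage markers lay above 0, with a median of 2.08 and 10 at an unadjusted p under 0.05 (0 in edgeR after adjustment, 10 in DESeq2). They summed to 445.1, 387.2, 307.1 and 531.7 CPM in WT and 3762, 677.0 and 1225 CPM in KO, highest in the library labelled KO 1, where the subunit genes were lowest. Their part in the levels of the subunit genes was not tested.

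The promoters of isoforms that followed the library order steeply (*Cox8b*, *Cox7a1*) and of widespread complex IV genes (*Cox6a1*, *Cox8a*) are shown for comparison. They are RefSeq sequences of GRCm38.p6, 5′ to 3′ on the gene's strand, from 250 bases before the RefSeq start to the start or to the first base of the GENCODE gene, whichever comes first. Capitals mark a match to a searched motif.
Cox6a1, chr5:115348982-115349208, minus strand: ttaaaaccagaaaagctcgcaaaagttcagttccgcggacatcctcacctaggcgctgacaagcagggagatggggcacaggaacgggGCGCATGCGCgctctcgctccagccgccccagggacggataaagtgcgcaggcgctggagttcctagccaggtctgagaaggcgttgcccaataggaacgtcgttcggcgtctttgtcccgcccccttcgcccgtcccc
Cox8a, chr19:7217617-7217866, minus strand: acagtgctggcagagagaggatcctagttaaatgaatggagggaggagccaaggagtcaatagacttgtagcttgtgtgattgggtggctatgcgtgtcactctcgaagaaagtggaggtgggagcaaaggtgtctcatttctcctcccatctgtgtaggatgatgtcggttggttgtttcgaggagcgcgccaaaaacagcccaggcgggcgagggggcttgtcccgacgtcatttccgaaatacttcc
Cox8b, chr7:140900447-140900696, minus strand: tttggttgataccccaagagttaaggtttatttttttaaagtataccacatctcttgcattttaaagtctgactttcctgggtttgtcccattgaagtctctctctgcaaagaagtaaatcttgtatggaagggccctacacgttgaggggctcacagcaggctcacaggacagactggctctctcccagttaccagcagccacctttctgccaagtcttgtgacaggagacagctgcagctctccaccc
Cox7a1, chr7:30183921-30184143, plus strand: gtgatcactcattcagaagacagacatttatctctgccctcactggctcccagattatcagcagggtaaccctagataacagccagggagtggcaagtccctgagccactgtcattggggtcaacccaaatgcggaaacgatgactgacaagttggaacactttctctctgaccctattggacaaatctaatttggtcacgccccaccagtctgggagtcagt
The capitals in *Cox6a1* are a site that reads as the NRF1 motif on both strands, 162 to 153 bases before the RefSeq start. Its printed window leaves out 23 bases at the gene. Over the full 250 bases *Cox6a1* also matched the ETS motif CCGGAAG, which the printed bases do not hold. The other 3 windows hold no match. GC content was 62.1% in *Cox6a1*, 52.8% in *Cox8a*, 49.8% in *Cox7a1* and 47.2% in *Cox8b*.

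Of the 83 genes, 68 matched an entry of the promoter table. Over the full 250 bases and on both strands, the NRF1 motif GCGCATGCG was found for 6 of 68 genes (8.82%) against 1.64% of 27025 genes. The ETS motif CCGGAAG was found for 12 (17.6%) against 7.83%, the nuclear receptor half-site AAGGTCA for 5 (7.35%) against 4.70%, and the YY1 motif ATGGCGG for 4 (5.88%) against 2.58%. At least 1 of the 4 motifs was found for 23 genes (33.8%) against 15.5%. The 27025 genes are more than the 19188 tested here, so this background was not limited to genes expressed in these libraries. These are letter matches in 1 window, and no binding was measured.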

How the data were processed

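Per the labels' protocols, Trizol RNA of mouse aorta was made into 7 libraries with the SMARTER mRNA-Seq kit. The authors deposited estimated counts per gene as whole numbers without scaling between libraries. The submitters' processing notes name the builds GRCm38 and mm10. Not given in the sources used here are the aligner, counting tool, annotation and strand setting. Low counts pile up at multiples of 4, so totals are deposited counts, not reads. Of 47729 identifiers, 47224 matched a symbol. Positions and exon lengths are from GENCODE M21 on GRCm38, 1-based.

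KO was compared with WT in R 4.3.3 with edgeR 4.0.16 (filterByExpr, TMM scaling, glmQLFit and glmQLFTest without covariates, Benjamini-Hochberg adjustment at 0.05) over 19188 genes, *Mmp19* and *Acan* being kept regardless of the filter. The fit was tested on simulated data. Each SE given with an edgeR log2 fold change is its absolute value divided by the square root of the F statistic. Deviations use log2 CPM with a prior count of 2. Alternatives were DESeq2 1.42.0, its size factors, upper-quartile scaling, other filters, removal of mitochondrially encoded genes, limma 3.58.1 voom with quality weights per sample, a block for the replicate number, each library left out, a prior count of 0.5, a mean CPM limit of 5 and, chosen after seeing the data, counts divided by 4.

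The members and all gene lists were chosen with earlier results of these data known. Named by rule were both genes of each isoform pair, all of complex II, the 3 smallest p and the highest level per kilobase of every other complex, 2 genes of each other list and, for marker lists, the 3 most abundant. Genes of the other lists are printed where they bear on a result on the members. One member that the rule names is not reported here. *Ndufb6*, *Ndufb9*, *Atp5g2*, *Atp5g3*, *Atp5j* and the 4 promoters were chosen after their values were seen. Of the 83 members, 36 overlap another counted gene, whose reads cannot be told apart without strand. No pair of libraries agreed within sampling noise (mean chi-square per gene 22.5 or more).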

Additional observations from a re-analysis of the deposited data

How the results depend on the processing

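Of the 83 subunit genes, DESeq2 called 1, and every other alternative called 0, including the fits with each library left out. Over all genes, 3 passed in edgeR, 0 without a filter on low counts, 7 with at least 50 counts in at least 3 libraries, 7 with counts divided by 4, 7 in limma-voom, 1594 in DESeq2 and 0 to 1029 with each library left out. The replicate number as a block gave 0 genes and 0 subunit genes. Same-numbered libraries correlated at 0.05, 0.07 and 0.34 in their deviations, and 1 of 3 KO libraries correlated best with its own number. Deviations from the mean of 3 or 4 libraries depend on each other, so these values cannot tell whether the numbers pair the libraries. Under the block *Cox6b1* was at -0.038 and *Uqcrq* at -0.0344. In limma-voom, whose lowest quality weight was 0.256 for the library labelled KO 1, the median over the 83 genes was 0.11 with 62 genes above 0. There *Atp5b* was at 0.0414, *Cox4i1* 0.0763, *Cox4i2* 0.0823, *Cox6a1* 0.0123, *Cox7a1* 0.134, *Cox7a2* 0.198, *Cox8a* 0.115, *Cox8b* 0.143, *Ndufa4* 0.146, *Sdha* 0.0681, *Sdhd* 0.0925, *Uqcrc2* 0.169 and *Uqcrfs1* 0.151. *Cox4i2* was at 0.00914 with the 50-count filter and 0.0139 with counts divided by 4. With each library left out, log2 fold changes crossed 0 for *Atp5b* (-0.502 to 0.073), *Cox4i1* (-0.405 to 0.136), *Cox4i2* (-0.0778 to 0.121), *Cox6a1* (-0.463 to 0.0676), *Cox6b1* (-0.217 to 0.383), *Cox7a1* (-0.58 to 0.366), *Cox7a2* (-0.419 to 0.28), *Cox7a2l* (-0.318 to 0.0337), *Cox8a* (-0.365 to 0.177), *Cox8b* (-0.58 to 0.366), *Ndufa13* (-0.407 to 0.0237), *Ndufa4* (-0.465 to 0.21), *Ndufa4l2* (-0.0567 to 0.336), *Sdha* (-0.518 to 0.114), *Sdhb* (-0.74 to 0.055), *Sdhd* (-0.551 to 0.177), *Uqcrc2* (-0.484 to 0.246), *Uqcrfs1* (-0.495 to 0.255) and *Uqcrq* (-0.285 to 0.457). Below 0 throughout, nearest to it without the library labelled KO 1 and farthest without KO 3, were *Ndufs7* (-0.815 to -0.192), *Ndufv3* (-0.709 to -0.0909), *Uqcrc1* (-0.743 to -0.0632), *Sdhc* (-0.573 to -0.0134), *Atp5d* (-0.557 to -0.0343) and *Atp5s* (-0.437 to -0.0763). Also across 0 were the differences in log2 ratio of *Cox4i2* to *Cox4i1* (-0.0317 to 0.399), *Cox7a1* to *Cox7a2* (-0.353 to 0.108), *Cox8b* to *Cox8a* (-0.557 to 0.217), *Ndufa4l2* to *Ndufa4* (-0.285 to 0.872) and *Cox6b2* to *Cox6b1* (-0.576 to 0.00893). The cause was not tested. *Cox6a2* was at 3.87 to 4.90 with each library left out and 6.05 in limma-voom. The comparison rests on 4 WT and 3 KO libraries, and the part of counting error in the spread between them was not tested.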

Other observations

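The 23 listed regulators of mitochondrial genes had median deviations of -0.09, 0.18, -0.22 and 0.07 in WT and -0.21, 0.01 and 0.15 in KO. The library labelled KO 1 was lowest for 10 of them (43.5%), against 95.2% of the subunit genes and 29.5% of all genes tested. It was highest for 7 of the 23, against 5079 of the 19188 genes tested. *Ppargc1b*, a coactivator of mitochondrial biogenesis, measured 19.6, 34.7, 18.7 and 14.7 CPM in WT and 5.03, 29.4 and 19.4 CPM in KO, and *Ppara*, a nuclear receptor for fatty acid oxidation, measured 53.9, 105.9, 47.2 and 41.0 CPM in WT and 12.5, 54.6 and 45.3 CPM in KO. Both were lowest in the library labelled KO 1. *Yy1*, with 52.4, 46.6, 48.1 and 46.5 CPM in WT and 61.9, 49.3 and 54.0 CPM in KO, and *Pprc1*, a coactivator related to *Ppargc1a*, with 42.1, 29.2, 26.2 and 31.3 CPM in WT and 60.7, 34.5 and 36.2 CPM in KO, were highest there. No regulator had an unadjusted p under 0.05 in edgeR, and edgeR and DESeq2 called 0.

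Among the carriers that work beside the chain, *Slc25a4*, the adenine nucleotide carrier of muscle, measured 268.0, 271.7, 286.5 and 273.6 CPM in WT and 169.5, 279.3 and 231.0 CPM in KO. *Slc25a5*, its widespread paralog, measured 181.3, 234.8, 160.2 and 204.0 CPM in WT and 193.4, 213.2 and 276.7 CPM in KO. The log2 fold changes were -0.28 (SE 0.17) and 0.22 (SE 0.18), with edgeR adjusted p-values of 0.450 and 0.568. *Slc25a3*, the phosphate carrier, was at 254.5 to 295.0 CPM in WT and 317.0, 292.5 and 303.2 CPM in KO, highest in the library labelled KO 1, where 79 of 83 subunit genes were lowest. *Ppargc1b*, *Ppara* and *Slc25a3* were chosen after their values were seen.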
